A study of Mus musculus with 6 samples.

Results

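The genes described here are 44 interferon-stimulated antiviral effectors, taken by symbol from the deposited table of 37447 genes. The list was set by gene name, but with earlier results of these data known. All 44 were found in the table and passed the filter for testing. The libraries hold RNA of flow-sorted microglia, the macrophages that reside in nervous tissue, from optic nerves of C57BL/6 mice 3 months old. The control group, FM (n = 2 libraries), carried the Nf1 flox/mut genotype, that is 1 floxed and 1 mutant allele of the tumor suppressor gene Nf1. The group FMC (n = 4 libraries) carried the same alleles together with GFAP-Cre, in which a promoter active in astroglial cells drives Cre recombinase. FM 1, FMC 2 and FMC 3 are labelled male and FM 2, FMC 1 and FMC 4 female. The labels call the libraries biological replicates and do not say how many mice gave each one. Both groups carry the mutant Nf1 allele, so neither is wild type, and the cells that GFAP-Cre targets are not the cells sequenced. Nf1 measured 39.3 and 50.03 in the FM pair and 47.99 to 138 in FMC, as FPKM (fragments per kilobase of transcript, scaled to the mapped fragments of the library), which does not check a deletion made in other cells.

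Interferons secreted by infected or activated cells bind receptors on the cell surface and activate the Jak kinases, which phosphorylate transcription factors that then enter the nucleus. Type I interferons act mainly through a complex that contains Stat2 and Irf9 and binds interferon-stimulated response elements, whereas interferon gamma acts mainly at gamma-activated sites. The genes switched on in this way include sensors of viral RNA and DNA, enzymes that block translation or degrade RNA, and factors that trap virions, and microglia are among the cells of the brain that express many of them.

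The promoter windows printed here show the response element in Isg15 and Ifit1, the textbook interferon-stimulated genes of the list, and in the 4 members with it whose genotypes did not overlap in expression. Of the 44 members 34 have an entry in the RefSeq promoter table (GRCm38.p6), and the 250 bases before each start were searched on both strands for the core letters GAAA, then 2 letters of any kind, then GAAA, which on the opposite strand reads as TTTC on either side of the 2 letters. At least 1 match was found in 11 of the 34 members, or 32.4%, against 3.46% of the 27025 genes in the table. These 11 are Bst2, Ddx60, Ifi203, Ifi205, Ifit1, Ifit3, Isg15, Rsad2, Slfn5, Slfn8 and Trim30a. Capitals mark the matches within each window, and the sequences run 5′ to 3′ on the strand of the gene.
Isg15, chr4:156200855-156200916, minus strand: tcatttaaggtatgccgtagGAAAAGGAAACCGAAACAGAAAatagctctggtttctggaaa
Ifit1, chr19:34640765-34640833, plus strand: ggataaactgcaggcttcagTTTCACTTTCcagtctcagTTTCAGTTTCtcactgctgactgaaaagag
Ifit3, chr19:34583387-34583436, plus strand: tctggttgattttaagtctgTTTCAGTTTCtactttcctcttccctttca
Slfn5, chr11:82951927-82951976, plus strand: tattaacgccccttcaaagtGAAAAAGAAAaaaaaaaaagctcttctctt
Trim30a, chr7:104465200-104465249, minus strand: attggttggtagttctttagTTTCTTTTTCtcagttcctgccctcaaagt
Bst2, chr8:71537567-71537622, minus strand: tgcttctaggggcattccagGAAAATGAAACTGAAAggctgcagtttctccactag
Overlapping matches make the runs of Isg15 and Bst2, and Ifit1 has 2 separate matches. Ifit3 also has 2, of which its window shows the one nearer the start. The core of the gamma-activated site, TTCNNNGAA, which reads the same on both strands apart from its middle letters, was found in 5 of the 34 members (Bst2, Eif2ak2, Ifit2, Isg20 and Samhd1; 14.7%) against 8.13% of all genes. A match describes the letters only. The members with the response element core had a median difference between the genotypes of 0.62 on the log2(FPKM + 1) scale and the 23 members without it one of 0.60.

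The comparison of FMC with FM asks how these effectors differ with GFAP-Cre in microglia of the optic nerve, in a study of neurofibromatosis-1 glioma. In limma's test across the 18208 genes with at least 1 FPKM in 2 or more libraries, no member passed an adjusted p of 0.05 in either direction. Over all genes 0% were called higher and 0.0275% lower. Of the 44 members 37 had a higher mean on the log2(FPKM + 1) scale in FMC and 7 a lower one. Their median difference was 0.61, where the median of all genes tested was -0.12 and 43.5% of genes were higher. A difference above 1 was found in 11 members (25%, against 8.42% of all genes), and a difference below -1 in 2 (4.55%, against 15.8%). At an unadjusted p under 0.05 there were 4 members higher (Ifi44, Zbp1, Dtx3l and Herc6) and 2 lower (Isg20 and Bst2), where 1.14% of all genes were called higher and 4.2% lower. Adjusted p ran from 0.685 to 0.999 over the members.

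**Figure D1:**
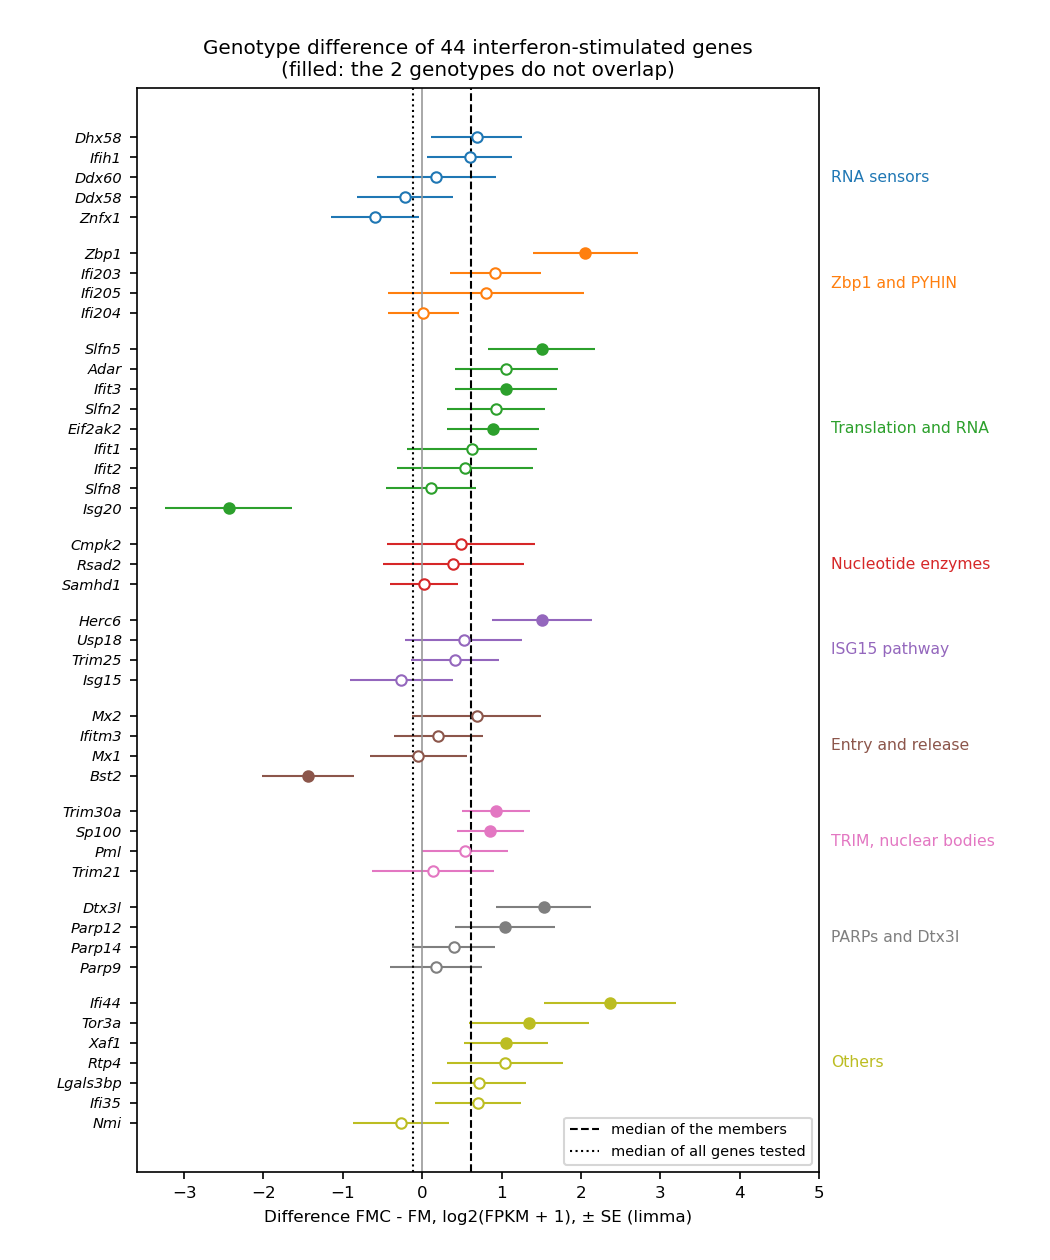
Difference between FMC and FM of each member on the log2(FPKM + 1) scale with its standard error from limma, by class of effector. Filled points are the 14 members whose 2 genotypes do not overlap, and the median of the members (dashed, 0.61) lies to the right of that of all genes tested (dotted, -0.12).

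In 12 of the 44 members, or 27.3%, the lowest FMC value exceeded the higher FM value, and in 2, Isg20 and Bst2, the highest FMC value was under the lower FM value. Over all genes tested the shares were 4.34% above and 8.22% below. The members are expressed at a higher level than most genes, with a median of their means of 22.3 FPKM against 5.98 FPKM, and among the 10195 genes with a mean of at least 5 FPKM the shares were 5.17% above and 6.87% below. After quantile normalization 15 members lay above, where 7.33% of all genes did. That normalization moved the median of all genes to 0.04 and that of the members to 0.77. Relative to the median of all genes the members' median was 0.73 in the values as deposited and 0.74 after quantile normalization. Without FM 1 the members' median was 0.37, with that of all genes at -0.25. Without FM 2 there were 21 members above and 4 below, where 16.5% and 19.1% of all genes were.

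The sensors of foreign nucleic acid include the member with the smallest p, Zbp1, whose protein binds RNA and DNA in the Z conformation and links them to cell death. Zbp1 (ENSMUSG00000027514; chromosome 2, 173032113 to 173044424 in mm9) stood at 7.24 and 3.22 FPKM for the FM pair against 15.8, 27.8, 14.3 and 47.9 FPKM across FMC 1 to FMC 4. Every FMC library was above both FM libraries, and FMC 4 was the highest. Its means were 5.23 ± 2.84 FPKM (SD, n = 2) and 26.4 ± 15.5 FPKM (SD, n = 4), a difference of 2.06 ± 0.66 (SE) on the log2(FPKM + 1) scale that did not pass (limma adjusted p = 0.685). Between the libraries whose titles carry dates 1 day apart, the difference was 1.81 for FMC 2 against FM 1 and 1.85 for FMC 3 against FM 2.

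The other sensors of this class belong to the PYHIN family, whose members bind DNA. Ifi204 stood at 143 and 119 FPKM for the FM pair against 106, 114, 134 and 187 FPKM across FMC 1 to FMC 4, and the groups overlapped throughout (difference 0.02 ± 0.44 SE). Its direction was lower in FMC, at -0.15, without FMC 4. Ifi203 had a difference of 0.92 and Ifi205 one of 0.81, with a standard error of 1.24 for Ifi205, which ranged from 0.0767 FPKM in FM 2 to 12.4 FPKM in FMC 4. The locus of Ifi203 in the table shares 22085 bases with Mndal, and the Ifi200 genes are close copies of each other, so their separate values are uncertain.

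None of the 5 RNA sensors and helicases separated the genotypes, where 4.34% of all genes tested lay above and 8.22% below. Dhx58, which encodes the regulatory RIG-I-like receptor LGP2, stood at 9.81 and 10.3 FPKM for the FM pair against 16.9, 9.58, 27.0 and 17.7 FPKM across FMC 1 to FMC 4. Of its FMC values 3 were above both FM libraries and FMC 2 was below both (difference 0.68 ± 0.58 SE, adjusted p = 0.993). Ddx58, which encodes the RNA sensor RIG-I, ran from 13.9 FPKM in FMC 1 to 47.98 FPKM in FM 1 (difference -0.22 ± 0.60 SE). For Ifih1, the gene of the long double-stranded RNA sensor MDA5, the difference was 0.60 ± 0.54 (SE). Znfx1, a helicase of the outer mitochondrial membrane and the most abundant gene of the class, was at 60.2 and 55.4 FPKM for the FM pair against 18.0, 37.6, 56.0 and 54.2 FPKM across FMC 1 to FMC 4. Its difference was -0.59 ± 0.55 (SE), and FMC 1 was the lowest library, without which it was -0.25. Ddx60, another helicase, differed by 0.18 ± 0.75 (SE).

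Of the 9 effectors that act on translation or RNA, 3 lay above, 1 below and 5 overlapped. Over all genes tested 4.34% lay above and 8.22% below. Slfn5, of the Schlafen family (ENSMUSG00000054404; chromosome 11, 82764851 to 82776443), was at 7.97 and 5.36 FPKM for the FM pair against 19.8, 19.5, 9.55 and 45.8 FPKM across FMC 1 to FMC 4. FMC 3 was only a little above FM 1, and FMC 4 stood well above the rest (difference 1.505 ± 0.67 SE, limma adjusted p = 0.943). Eif2ak2, which encodes PKR, the kinase that stops translation on double-stranded RNA (ENSMUSG00000024079; chromosome 17, 79251904 to 79281913), was at 7.32 and 8.44 FPKM for the FM pair against 17.1, 8.69, 19.6 and 19.1 FPKM in FMC. FMC 2 lay near FM 2 and the other 3 were higher than both FM libraries by a wide margin (difference 0.89 ± 0.58 SE). Ifit3, a member of the family that holds back foreign RNA from translation (ENSMUSG00000074896; chromosome 19, 34658021 to 34663221), was at 5.59 and 2.79 FPKM for the FM pair against 11.7, 7.10, 8.52 and 11.1 FPKM in FMC. Its difference was 1.06 ± 0.64 (SE) and 0.66 without FM 2. Its neighbours Ifit1 and Ifit2 overlapped, with differences of 0.62 ± 0.82 and 0.54 ± 0.86 (SE), and Ifit1 was low in every library, from 0.616 to 5.79 FPKM.

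Isg20, which encodes an exonuclease that degrades single-stranded RNA (ENSMUSG00000039236; chromosome 7, 86058310 to 86065248), ran the other way. It was at 14.6 FPKM for both FM libraries against 1.24, 1.15, 5.69 and 1.11 FPKM across FMC 1 to FMC 4. FMC 3 stood apart from the other 3 FMC libraries and was still below both FM libraries. The difference was -2.44 ± 0.80 (SE), a fold of 0.184 on the log2(FPKM + 1) scale, and did not pass (limma adjusted p = 0.689). Adar, the RNA-editing adenosine deaminase, and Slfn2 were higher by 1.06 ± 0.64 and 0.93 ± 0.61 (SE), with FM 2 inside the range of FMC for both. Slfn8, the most abundant of the class, was at 43.3 and 79.3 FPKM for the FM pair against 32.4, 57.3, 99.5 and 87.3 FPKM in FMC (difference 0.11 ± 0.57 SE). Its direction turned without FM 1, to -0.32. Schlafen genes are close copies of each other, so reads may have been split between them.

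The 3 enzymes that act on nucleotides overlapped between the genotypes, as did most genes tested (4.34% lay above and 8.22% below). Samhd1, the phosphohydrolase that lowers the pool of deoxynucleotides, was at 116 and 192 FPKM for the FM pair against 155, 144, 161 and 146 FPKM in FMC. The FMC libraries lay close together, inside the range of the FM pair (difference 0.02 ± 0.43 SE). Cmpk2, a mitochondrial nucleotide kinase, was at 0.195 and 1.35 FPKM for the FM pair against 0.0988, 8.79, 0.327 and 1.14 FPKM in FMC. Its difference of 0.49 rested on FMC 2, and without that library it was -0.20. Rsad2, its neighbour on chromosome 12, encodes viperin, the radical enzyme that makes a chain-terminating nucleotide. It was highest in another library, FMC 1, at 11.2 FPKM, and at 1.23 to 2.73 FPKM in the other 5.

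Isg15 encodes a ubiquitin-like protein that is attached to other proteins, Herc6 the mouse ligase for it and Usp18 the protease that removes it. Herc6 (ENSMUSG00000029798; chromosome 6, 57530986 to 57615130) stood at 9.31 and 7.59 FPKM for the FM pair against 18.7, 13.2, 43.5 and 40.2 FPKM across FMC 1 to FMC 4. All 4 FMC libraries were above both FM libraries, and FMC 3 and FMC 4 were more than double FMC 1. The means were 8.45 ± 1.22 FPKM (SD, n = 2) and 28.9 ± 15.2 FPKM (SD, n = 4), a difference of 1.51 ± 0.63 (SE; limma adjusted p = 0.875). For Isg15 itself the genotypes overlapped. It was at 12.3 and 19.1 FPKM for the FM pair against 7.11, 12.7, 9.81 and 28.0 FPKM in FMC, and FMC 4 was the highest and FMC 1 the lowest library (difference -0.26 ± 0.65 SE). Usp18 was high in FMC 3 and FMC 4 (36.3 and 46.5 FPKM) and between 9.48 and 16.2 FPKM in the other 4 libraries. Trim25, a ubiquitin ligase that activates RIG-I, was at 19.7 and 29.3 FPKM for the FM pair against 49.9, 18.1, 28.5 and 42.4 FPKM in FMC (difference 0.41 ± 0.55 SE). The difference of Trim25 was 0.14 without FM 1, 0.21 without FMC 1, and 0.69 and 0.68 without FM 2 and FMC 2. Isg15, Usp18, Rsad2, Mx1, Parp9 and Rtp4 fall outside the rule for naming members and were chosen after their values were seen.

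Of the 4 genes that act on entry, capsids and release of viruses, Bst2 was the only one whose genotypes did not overlap. The shares of all genes tested were 4.34% above and 8.22% below. Bst2 (ENSMUSG00000046718; chromosome 8, 74058163 to 74061336) encodes tetherin, which holds budding virions at the cell surface and is also a marker of plasmacytoid dendritic cells. It was at 120.0 and 73.3 FPKM for the FM pair against 42.2, 17.0, 29.9 and 61.4 FPKM across FMC 1 to FMC 4, with FMC 4 closest to FM 2. The means were 96.7 ± 33.0 FPKM (SD, n = 2) and 37.6 ± 18.9 FPKM (SD, n = 4), a difference of -1.44 ± 0.58 (SE; limma adjusted p = 0.841). The 7 listed markers of plasmacytoid dendritic cells summed to 111 and 201 FPKM for the FM pair against 142 to 252 FPKM in FMC, of which Tlr9 alone gave 92.9 to 242 FPKM, and Spib stayed at or below 1.18 FPKM. Their part in the values of Bst2 was not tested.

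Ifitm3, which blocks the fusion of viruses in endosomes, was the most abundant of the 44, with 242 and 365 FPKM for the FM pair against 363, 273, 215 and 643 FPKM in FMC. The groups overlapped on both sides (difference 0.20 ± 0.56 SE), and without FMC 4 the direction turned, to -0.10. Mx1 and Mx2 encode GTPases that trap viral nucleocapsids, and laboratory strains such as C57BL/6 are known to carry defective alleles of Mx1. Mx1 was at 12.1 and 12.6 FPKM for the FM pair against 6.64 to 21.1 FPKM in FMC (difference -0.05 ± 0.61 SE). Mx2 ranged from 1.72 FPKM in FM 2 to 10.2 FPKM in FMC 4 (difference 0.69 ± 0.81 SE).

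In the class of TRIM proteins and components of nuclear bodies 2 of 4 members lay above and all 4 had a higher mean in FMC. Over all genes tested 4.34% lay above and 43.5% had a higher mean. Sp100, a scaffold of PML nuclear bodies (ENSMUSG00000026222; chromosome 1, 87546563 to 87606573), stood at 99.0 and 94.5 FPKM for the FM pair against 180.0, 133, 192 and 208 FPKM across FMC 1 to FMC 4. The 2 FM libraries lay within 5 FPKM of each other and every FMC library was higher (difference 0.86 ± 0.42 SE, limma adjusted p = 0.993). Trim30a, a negative regulator of NF-kappaB signalling (ENSMUSG00000030921; chromosome 7, 111557539 to 111613707), was at 81.0 and 96.6 FPKM for the FM pair against 159.6, 132, 218 and 177 FPKM in FMC. Its difference was 0.93 ± 0.43 (SE; limma adjusted p = 0.967), with FMC 3 the highest library. Over all alternatives the difference ran from 0.67 to 0.99 for Sp100 and from 0.71 to 1.05 for Trim30a. Pml, which gives the bodies their name, was higher by 0.54 ± 0.54 (SE), and Trim21, a receptor for antibody inside the cell, by 0.14 ± 0.76. In both Pml and Trim21 FM 1 was the lowest library, while FM 2 lay within the FMC range for Pml and was the highest library for Trim21. Trim30a has close copies beside it, so its value may include their reads.

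**Figure D2:**
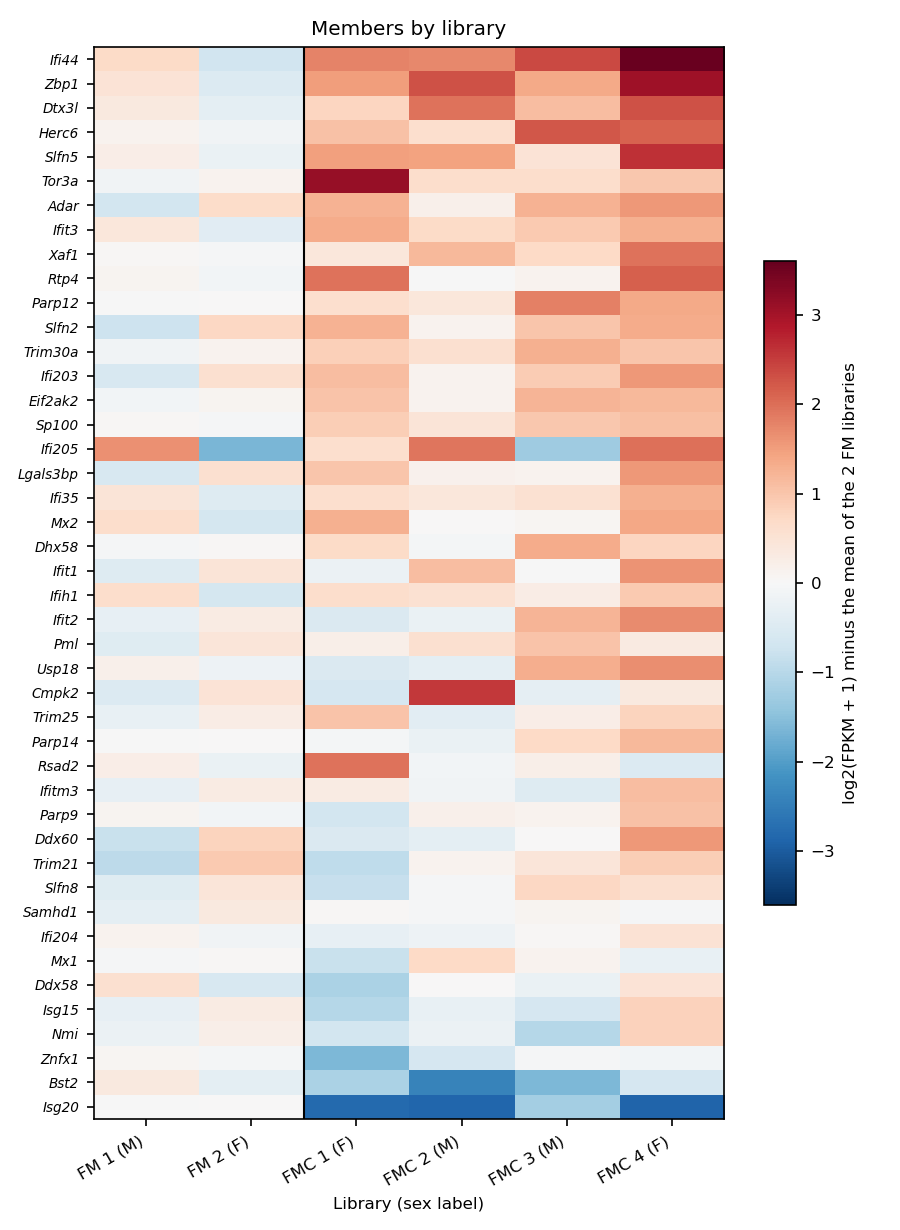
Level of each of the 44 members in each library on the log2(FPKM + 1) scale, as the difference from the mean of the 2 FM libraries, ordered by the mean over FMC. Ifi44, Zbp1 and Dtx3l head the list and Bst2 and Isg20 close it, and FMC 4 holds the highest value of 25 members.

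Dtx3l and Parp9 encode a ubiquitin ligase and an inactive ADP-ribosyl transferase that work as 1 complex, and their loci in the table share 682 bases. Dtx3l (ENSMUSG00000049502; chromosome 16, 35926597 to 35939237) was at 13.1 and 7.63 FPKM for the FM pair against 17.8, 41.7, 22.9 and 53.4 FPKM across FMC 1 to FMC 4. All FMC libraries were above both FM libraries, with FMC 2 and FMC 4 the highest (difference 1.53 ± 0.60 SE, limma adjusted p = 0.808). Parp9 was at 20.9 and 18.0 FPKM for the FM pair against 11.9, 22.2, 21.5 and 41.1 FPKM in FMC, and overlapped (difference 0.18 ± 0.58 SE). The difference between the 2 genes' responses was not tested. Parp12, an ADP-ribosyl transferase with RNA-binding zinc fingers (ENSMUSG00000038507; chromosome 6, 39036409 to 39068348), was at 6.16 and 6.24 FPKM for the FM pair against 9.93, 8.50, 24.2 and 17.6 FPKM in FMC. The FM pair was nearly equal and all FMC libraries were above it (difference 1.04 ± 0.63 SE). Parp14, the most abundant of this class, was at 46.2 and 47.0 FPKM for the FM pair against 44.8, 39.4, 77.5 and 106 FPKM in FMC, so FMC 1 and FMC 2 were below the FM pair and FMC 3 and FMC 4 above it (difference 0.40 ± 0.52 SE). Without FMC 4 it was 0.14, and without FMC 2 it was 0.61.

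The other 7 members include Ifi44, with the highest positive difference of the 44 (that of Isg20 was larger in size and negative). Ifi44 (ENSMUSG00000028037; chromosome 3, 151393886 to 151412911), a cytoplasmic protein of uncertain function, was at 2.18 and 0.244 FPKM for the FM pair against 5.89, 5.59, 9.43 and 22.3 FPKM across FMC 1 to FMC 4. Its means were 1.21 ± 1.37 FPKM (SD, n = 2) and 10.8 ± 7.85 FPKM (SD, n = 4), and the difference was 2.36 ± 0.83 (SE; limma adjusted p = 0.758). Because the FM values are low, the log2(FPKM + 1) scale understates the ratio, and with a pseudocount of 0.1 FPKM the difference was 3.38. Xaf1, which encodes an antagonist of an apoptosis inhibitor (ENSMUSG00000040483; chromosome 11, 72115131 to 72127235), was at 33.7 and 31.8 FPKM for the FM pair against 43.5, 75.2, 54.0 and 130.3 FPKM in FMC. The FM pair was close, and all FMC libraries were higher (difference 1.06 ± 0.53 SE, limma adjusted p = 0.993).

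Tor3a, an ATPase of the endoplasmic reticulum (ENSMUSG00000060519; chromosome 1, 158583748 to 158604487), was at 10.9 and 13.5 FPKM for the FM pair against 115, 19.5, 19.4 and 24.98 FPKM across FMC 1 to FMC 4. FMC 1 stood apart, and the other 3 FMC libraries were still above both FM libraries. Its difference of 1.35 ± 0.76 (SE) was 0.75 without FMC 1. The 8 listed T cell markers summed to 265 FPKM in FMC 1 and to 30.1 to 82.4 FPKM in the other FMC libraries. In FM they summed to 21.2 and 36.7 FPKM. Neutrophil, B cell and oligodendrocyte markers also had their highest sums in FMC 1, at 499, 129 and 45.5 FPKM. The part of these markers in the values of Tor3a was not tested. Lgals3bp, a secreted glycoprotein, was at 114 and 257 FPKM for the FM pair against 342, 192, 188 and 506 FPKM in FMC (difference 0.71 ± 0.59 SE), with FM 2 inside the range of FMC. The difference was 0.13 without FM 1, 1.29 without FM 2 and 0.43 without FMC 4. Rtp4, a regulator of the interferon response, was high in FMC 1 and FMC 4 (64.3 and 74.4 FPKM) and between 14.8 and 17.5 FPKM in the other 4. FMC 1 and FMC 4 are the FMC libraries labelled female, but FM 2, also labelled female, was the lowest library for Rtp4, at 14.8 FPKM. Ifi35 and Nmi encode partner proteins, and their differences were 0.71 ± 0.54 and -0.26 ± 0.61 (SE).

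**Figure D3:**
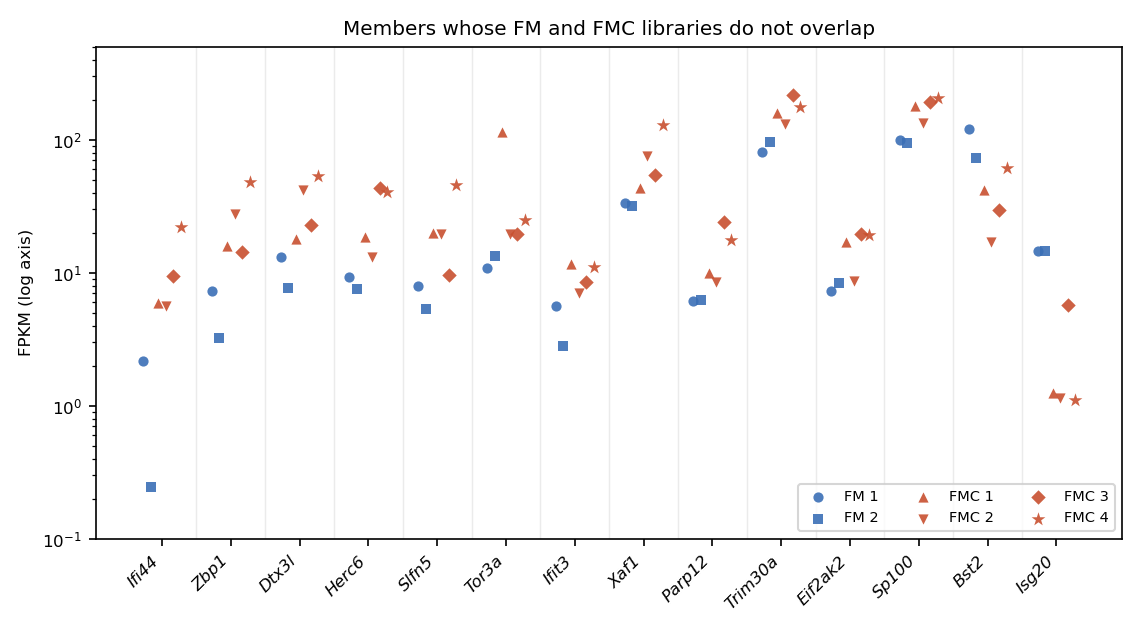
FPKM on a log axis in each library for the 14 members whose genotypes do not overlap, ordered by the difference between FMC (red) and FM (blue). Every red point lies above both blue points in the first 12 members and below both in Bst2 and Isg20, and FMC 4 (star) is the highest library in 6 of the 12.

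The members were not spread evenly over the FMC libraries. FMC 4 held the highest value of 25 of the 44 members, or 56.8%, and of 20.7% of all genes tested. The median member level in FMC 4 was 40.6 FPKM, against 17.6, 17.9 and 21.2 FPKM in FMC 1 to FMC 3 and 12.7 and 14.7 FPKM in FM 1 and FM 2. All 4 FMC libraries were thus above both FM libraries in this median, with FMC 4 well above the rest. In the members' summed FPKM FMC 2, at 1703, lay between FM 1 (1481) and FM 2 (1823). FM 1 and FM 2 each held the lowest value of 13 members and FMC 1 that of 10, among them Isg15, Mx1, Ddx58, Znfx1 and Parp9. These are 29.5%, 29.5% and 22.7% of the members, and over all genes tested the same libraries were lowest in 17.9%, 13.6% and 24.4%, so FMC 1 was near the share of all genes. Without FMC 4 the members' median difference was 0.47, beside -0.20 over all genes, with 32 of 44 higher, and 12 members lay above and 3 below, where 6.42% and 13.9% of all genes did. FMC 4 also had the highest depth relative to FMC 2, 2.11. The depth of FMC 3 was 1.96, that of FM 2 1.66, that of FMC 1 1.37 and that of FM 1 1.17. The part of depth in the values of FMC 4 was not tested.

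**Figure D4:**
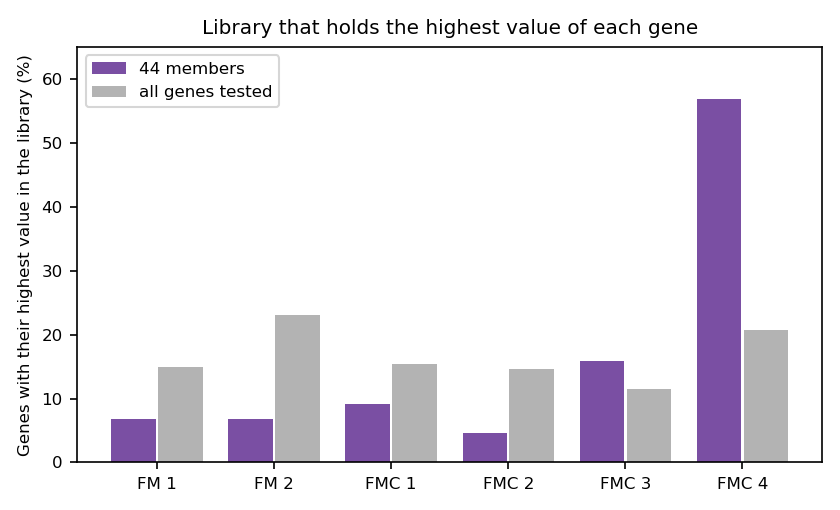
Share of the 44 members (purple) and of all 18208 genes tested (grey) whose highest value lies in each of the 6 libraries, in percent. FMC 4 holds 56.8% of the members and 20.7% of all genes.

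In every one of the 8 pairs of 1 FM and 1 FMC library more members were higher in FMC than lower, although these pairs share libraries and are not independent. The count ran from 24 of 44 (FMC 1 and FMC 2 against FM 2) to 38 of 44 (FMC 4 against FM 1), and the median difference from 0.11 to 1.12. All genes moved with part of this range: 56.4% were higher in FMC 4 than in FM 1, and 38.6% and 40.4% in FMC 1 and FMC 2 than in FM 2. Between libraries with dates 1 day apart, 29 of 44 members were higher in FMC 2 than in FM 1 (median 0.31, with 46.9% of all genes higher). In FMC 3 against FM 2, which differ in sex label, 32 of 44 were higher (median 0.42, with 38.1% of all genes higher). What those dates mark is not given in the labels. For sex, limma's interaction of sex with genotype called 0 of 18208 genes (0% at the adjusted threshold, 3.77% at an unadjusted p under 0.05) and 0 members at either threshold. The smallest unadjusted p was 0.0501, for Rtp4. With 1 FM library of each sex and 2 residual degrees of freedom this fit says little about whether the sexes differ.

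The genes upstream of the effectors were described from lists of interferons, receptors and kinases, transcription factors, adaptors and negative regulators. Of 37 such genes 29 were tested, 22 had a higher mean in FMC and 7 a lower one (median difference 0.24), and 0 passed. Over all genes tested 43.5% had a higher mean and the median difference was -0.12. A higher mean was found for 3 of 5 interferon genes, 5 of 7 receptors and kinases, 5 of 6 transcription factors, 6 of 7 adaptors and 3 of 4 negative regulators. Irf7, which drives the second wave of type I interferon, was at 10.9 and 6.82 FPKM for the FM pair against 24.4, 20.3, 20.6 and 31.4 FPKM in FMC (difference 1.36 ± 0.51 SE, limma adjusted p = 0.790). All 4 FMC libraries were above both FM libraries, and FMC 4 was again the highest. Pias1, a SUMO ligase that restrains interferon signalling, did not overlap either, with 32.6 and 21.5 FPKM for the FM pair against 38.2 to 58.4 FPKM in FMC. Stat2 and Irf9, parts of the type I complex, overlapped between the genotypes, with differences of 0.19 ± 0.50 and 0.53 ± 0.50 (SE).

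Of the interferon transcripts, Ifna4 was at 1.29 and 38.3 FPKM for the FM pair, at 1.92 and 26.3 FPKM in FMC 1 and FMC 2, and listed at 0 in FMC 3 and FMC 4. Ifne was at 0.630 and 21.7 FPKM for the FM pair and at most 0.373 FPKM in FMC, and did not reach the filter. Both had their highest value in FM 2. Ifna2, Ifna5 and Ifnk had theirs in FMC 4, at 2.08, 15.0 and 7.91 FPKM. In FM 1 and FM 2 these were at 1.98 and 0.791 FPKM (Ifna2), 13.9 and 0 (Ifna5) and 0.645 and 0.692 (Ifnk). Ifnb1, the gene of interferon beta, was at 2.75 and 0.130 FPKM in FM, at 1.46 and 13.005 FPKM in FMC 2 and FMC 4, and listed at 0 in FMC 1 and FMC 3. Ifng, the gene of interferon gamma, was at most 1.04 FPKM, in FMC 1, and did not reach the filter. Ifna1 was listed at 0 in every library. The 7 receptor and kinase genes all overlapped, as did most genes tested. Ifnar1 lay between 22.9 and 42.1 FPKM and Ifnar2 between 123 and 229 FPKM.

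All 10 listed microglia markers were detected in every library, with Cx3cr1 between 70.3 and 110.3 FPKM and the 10 summing to 2881 and 5270.1 FPKM for the FM pair against 2939 to 4374 FPKM in FMC. Of these, 9 had a lower mean in FMC, with a median difference of -0.14 beside -0.12 for all genes tested. Fcrls lay below, at 21.2 and 50.6 FPKM for the FM pair against 5.23 to 21.1 FPKM in FMC. Markers of other cell types were lower in sum and none was listed at 0 in all libraries. T cell markers summed to 21.2 to 265 FPKM, with 7 of 8 higher by mean in FMC and Lck above without overlap. Of all genes tested 43.5% had a higher mean in FMC and 4.34% lay above. For B cells the sum was 23.3 to 129 FPKM, with 5 of 6 higher and Cd79a above without overlap. NK cell markers summed to 1.26 to 15.8 FPKM, and the 2 tested were lower. For monocytes it was 27.3 to 51.8 FPKM, with 3 of 5 higher and Ace below without overlap. Neutrophil markers summed to 45.7 to 499 FPKM and erythroid markers to 158 and 128 for the FM pair against 23.6 to 32.7 in FMC. Of the erythroid markers 5 of 6 did not overlap and lay below, where 8.22% of all genes tested did. Of the border-associated macrophage markers 5 had a value in every library. These 5 summed to 402 and 504 FPKM for the FM pair against 172 to 329 in FMC. All 5 had a lower mean in FMC, and Mrc1 and Pf4 lay below without overlap, as did 8.22% of all genes tested. Astrocyte markers summed to 117 to 144 FPKM, oligodendrocyte markers to 16.0 to 45.5 and endothelial markers to 15.0 to 30.2. Fewer cells of a type and less RNA per cell cannot be told apart in these bulk samples, and the part of other cells in the members' values was not tested. Depth relative to FMC 2, estimated from the spacing of low values, lay between 1.17 and 2.11 in the other libraries. Across the 44 members, which are not independent, Pearson's r of log2(FPKM + 1) ranged over 0.814 to 0.889 among FMC libraries and 0.768 to 0.874 across genotypes, and FM 1 and FM 2 gave 0.871.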

How the data were processed

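Expression of 6 libraries was read from 1 deposited table of FPKM values that the authors made per Ensembl gene. Named in the submitters' processing notes, with no roles, are mm9, Cufflinks 2.0.2, Bowtie2 2.0.0, TopHat2 2.0.4 and CASAVA 1.8.2, and the labels' protocols name the Ovation method for cDNA from total RNA. A strand setting for counting is not stated there. Counts were not used, so no interval for counting error is given. Relative depth came from the most frequent ratio of values between 0.02 and 0.5 FPKM in 2 libraries. Locus starts in the table count from 0 and were raised by 1. 426 genes without a value in a library were left out.

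Tests used limma 3.58.1 in R 4.3.3 on log2(FPKM + 1), with the prior variance following mean level. They were two-sided, p-values were adjusted over all genes after Benjamini and Hochberg, and the procedure was tested on simulated data. In 5 simulated runs 1.5% of true log2 differences of -2 passed, and 2% of those of 2. For true differences of -4 and 4 the shares were 36% and 39%. Not passing therefore says little about a difference of 2 or less. The p-values measure the spread between these libraries. Alternatives were another pseudocount, other filters, median ratio and quantile scaling, no trend, array weights, sex, blocks by number or date, and each library left out. No covariate was used. The members, lists and classes were chosen with earlier results of these data known. Libraries are described one by one for members whose genotypes do not overlap and for the member with the smallest p and the highest mean of each of 9 classes. The response element windows shown were chosen after the matches were seen. Results for 1 gene of the upstream lists are not reported here.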

Additional observations from a re-analysis of the deposited data

Results flagged for a closer look

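In 2 of the 44 members 1 FMC library lay far from the other 3. The measure was the gap between the extreme library and its nearest neighbour over the range of the 4 FMC values on the log2(FPKM + 1) scale, set against Dixon's 95% critical value. Isg20 was at 5.69 FPKM in FMC 3 and between 1.11 and 1.24 FPKM in the other FMC libraries (gap over range 0.947). Tor3a was at 115 FPKM in FMC 1 and between 19.4 and 24.98 FPKM in the other FMC libraries (gap over range 0.861). Chance gives about 1 in 20 such groups. Over all genes tested 9.76% passed this value in FMC, against 4.55% of the members.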

How the results depend on the processing

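In each of the 16 alternatives the members' median difference stayed above that of all genes, and no member passed. Over these alternatives the smallest adjusted p of a member was 0.596 (limma), for Isg20 without an intensity trend. Over all genes 5 were called, all lower and none of them a member. The count was 1 (higher) with a pseudocount of 0.1 FPKM, 10 (all lower) without an intensity trend, 3 (2 higher, 1 lower) with a block for dates 1 day apart, and 0 without a filter, with a mean of at least 5 FPKM and with sex as a covariate. With 1 library left out it ran from 0 to 8 (4 higher and 4 lower, without FMC 4). The members' median ran from 0.37 to 0.77 and the count of members whose genotypes do not overlap from 15 to 25 with 1 library left out. The 25 arose without FM 2, where 16.5% of all genes lay above and 19.1% below, and the 15 without FMC 1, FMC 3 or FMC 4, where 6.42% to 7.89% lay above and 10.7% to 13.9% below. With the replicate block 0 genes were called over all genes, the members' median was 0.50 and 29 of 44 were higher. FMC 3 and FMC 4 have no FM library of the same number, so that block compares only FMC 1 with FM 1 and FMC 2 with FM 2. The block for dates likewise compares only FMC 2 with FM 1 and FMC 3 with FM 2. Same-numbered libraries had correlations of deviations of 0.03 and -0.06. With 2 FM libraries the deviations of FM 1 and FM 2 mirror each other, so these values cannot show what same-numbered libraries share.

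Of 383 recomputed differences of the 24 members described library by library, 17 changed direction, in 7 members. With the replicate block Ifi204 was at -0.25, Slfn8 at -0.44 and Parp14 at -0.15, and Znfx1 was at -1.12. With the date block Ifi204 was at -0.0788, Trim25 at -0.0788 and Ifitm3 at -0.30, while Lgals3bp was at 0.15. After quantile normalization Ifi204 was at -0.0015. With 1 library left out Ifi204 was between -0.15 and 0.14, Slfn8 between -0.32 and 0.54, Cmpk2 between -0.20 and 0.98, Samhd1 between -0.34 and 0.39 and Ifitm3 between -0.10 and 0.50. The direction of the 14 members whose genotypes do not overlap is largely fixed by how they were chosen. Over the alternatives Herc6 was between 0.83 and 1.81, Parp12 between 0.50 and 1.26 and Tor3a between 0.64 and 1.89. The values with a block use only part of the FMC libraries, FMC 1 and FMC 2 for number and FMC 2 and FMC 3 for dates. Beyond that, the cause of these shifts was not tested. Where 1 FM library is left out, the other is assumed to vary as FMC does. Residual SD had a median of 0.84 on the log2 scale, and FM has 2 libraries.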
